A study of Mus musculus with 25 samples.

Results

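The mRNA levels of Fgf21, its co-receptor gene Klb and the receptor genes Fgfr1, Fgfr2, Fgfr3 and Fgfr4 were followed in mouse liver. The genes were chosen by symbol as the ligand and receptors of FGF21 signaling. The rule uses none of their values, but it was set with earlier results of these data known. All 6 were found among the 41388 gene identifiers counted and passed the filter on low counts that kept 14065 genes. Each of 25 libraries held poly-A selected liver RNA, read here as that of 1 mouse of the C57B/6J strain, 20 weeks of age at collection in a study of 12 weeks. The groups were chow-fed wild-type mice with empty vector (chow WT EV, n = 3), Western diet-fed wild-type mice with empty vector (WD WT EV, n = 6) or NAMPT vector (WD WT NAMPT, n = 6), and Western diet-fed mice labelled SIRT1 LKO with empty vector (WD LKO EV, n = 5) or NAMPT vector (WD LKO NAMPT, n = 5). All mice were grown to about 8 weeks of age and received an AAV8 virus, so the chow group also carried empty vector. The study describes NAMPT driven by a thyroxine-binding globulin promoter, which acts in hepatocytes, male mice, WT mice that were Sirt1 LoxP/LoxP littermates without Cre, and an LKO made by Cre under the albumin promoter. Other liver cells in the LKO keep Sirt1.

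FGF21 is a hormone that the liver releases into blood, chiefly in fasting, on carbohydrate-rich diets and under cellular stress. It acts through an FGF receptor paired with beta-klotho, the product of Klb, and FGFR1 is its best known partner in fat and brain. In hepatocytes beta-klotho is abundant with FGFR4, the pair that receives FGF15 from the gut and lowers bile acid synthesis. The transcription of Fgf21 is raised by PPARA in fasting, by ChREBP with sugar intake and by ATF4 in the integrated stress response.

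The promoter of Fgf21 is shown because 3 of the gene lists below are targets of factors known to act on it. The 250 bases before its start were taken from RefSeq (GRCm38.p6, chr7:45615491-45615740, minus strand). The capitals mark exact matches, in order, to a C/EBP-ATF response element (TTGCATCA), an E-box (CACGTG) and a TATA box (TATAAA).
Fgf21: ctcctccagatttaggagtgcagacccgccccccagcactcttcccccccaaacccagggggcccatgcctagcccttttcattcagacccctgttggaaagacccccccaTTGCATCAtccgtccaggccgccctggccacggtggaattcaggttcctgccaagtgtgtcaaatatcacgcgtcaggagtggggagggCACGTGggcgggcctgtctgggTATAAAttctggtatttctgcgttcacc
The C/EBP-ATF element spanned bases 139 to 132 before the start, the E-box 50 to 45 and the TATA box 28 to 23, and the 3 matches do not overlap. Both strands of all 32851 windows of this length in the table were searched. The C/EBP-ATF element was found in 0.791% of them, the E-box in 6.02% and the TATA box in 12.4%. A perfect direct repeat 1 element, of the kind PPARA binds, was in 0.0335% of windows and not in that of Fgf21. RefSeq windows were matched for 5 of the 6 genes, the exception being Fgfr1, and those of Klb, Fgfr2, Fgfr3 and Fgfr4 held none of the 4 motifs. A match describes these letters only.

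The libraries held 20166175 to 32937326 counts. Levels are given as CPM, counts scaled to the library total with TMM size factors. The vector gene Nampt averaged 47.3 ± 6.45 CPM (SD) with empty vector and 59.4 ± 10.6 CPM with NAMPT vector in WT mice, and 56.0 ± 11.9 and 79.8 ± 28.4 CPM in LKO-labelled mice. These groups overlapped in both genotypes. WD WT EV reached 54.0 CPM and WD WT NAMPT began at 46.7 CPM, and WD LKO EV reached 75.4 CPM and WD LKO NAMPT began at 53.9 CPM. Mean Sirt1 was 8.84 ± 0.57 CPM in WT and 8.56 ± 1.33 CPM in LKO-labelled mice with empty vector on Western diet, and 8.57 ± 0.62 CPM in WT and 9.81 ± 1.36 CPM in LKO-labelled mice with NAMPT vector. Gene-level counts cannot show the loss of a floxed exon, so these values do not check the labels, and the WD LKO groups are described here as labelled. Hepatocyte markers summed to 45030 to 76650 CPM in every library. Adipocyte markers summed to at most 0.253 CPM except in WD LKO NAMPT replicate 3, at 2.79 CPM, which also had the lowest Fgfr1 and Fgfr3 of all 25 libraries. Acinar cell markers were at or below 0.40 CPM except in WD WT NAMPT replicate 1, at 12.8 CPM.

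Per base of transcript, the co-receptor and Fgfr4 led the set, and Fgfr1 was the lowest receptor. Levels between genes are given as RPKM (CPM divided by the exon length in kilobases), over all 25 libraries. Fgfr4, the hepatocyte FGF receptor, had a median of 10.2 RPKM with a range of 7.11 to 13.5. Klb had a median of 9.23 RPKM and a range of 5.02 to 13.4. These neighbours were not separated by their spread: Fgfr4 ranked first of the 6 genes in 10 libraries and Klb in 9. Fgf21 ranked first in the other 6 libraries and last in 4, with a median of 6.90 RPKM and a range of 0.169 to 28.9. Fgfr2, best known from epithelia, followed at 4.83 RPKM (3.67 to 7.57) and Fgfr3 at 3.73 RPKM (2.58 to 5.59), and their ranges overlapped. Fgfr1 was at 0.679 RPKM (0.236 to 1.85), below every other member in 21 libraries. Gene counts do not separate the b and c splice forms of the receptors, which differ in the ligands they bind.

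Fgf21 lies on chromosome 7 (ENSMUSG00000030827, GRCm38 45613907 to 45615490, minus strand) with 3 exon blocks of 930 bases in all, and no other gene overlaps its exons. In chow WT EV it was at 0.33, 0.36 and 0.16 CPM, from 8, 8 and 4 counts. In WD WT EV the lowest library had 0.37 CPM, the median was 3.92 and the highest had 14.4 CPM. The chow libraries were the 3 lowest of all 25, and replicate 8 of WD WT EV, with 8 counts, was just above them. In WD WT NAMPT the lowest was 1.399, the median 9.52 and the highest 26.9 CPM. In WD LKO EV the 5 libraries had 11.01, 7.86, 7.40, 6.40 and 3.50 CPM. In WD LKO NAMPT they had 4.32, 7.59, 6.01, 6.42 and 8.23 CPM. All 4 Western diet groups overlapped, and within groups the highest library was 39.2 times the lowest in WD WT EV, 19.2 times in WD WT NAMPT, 3.15 times in WD LKO EV and 1.91 times in WD LKO NAMPT. Each WT ratio rested on 1 library: without replicate 8 of WD WT EV it was 6.08, and without replicate 6 of WD WT NAMPT it was 4.10. In order of the means, the groups ran from chow WT EV (0.28 ± 0.11 CPM, SD) through WD WT EV (6.07 ± 5.59), WD LKO NAMPT (6.51 ± 1.51) and WD LKO EV (7.23 ± 2.71) to WD WT NAMPT (12.0 ± 9.18), and no neighbouring pair among the Western diet groups was separated by its spread.

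**Figure D1:**
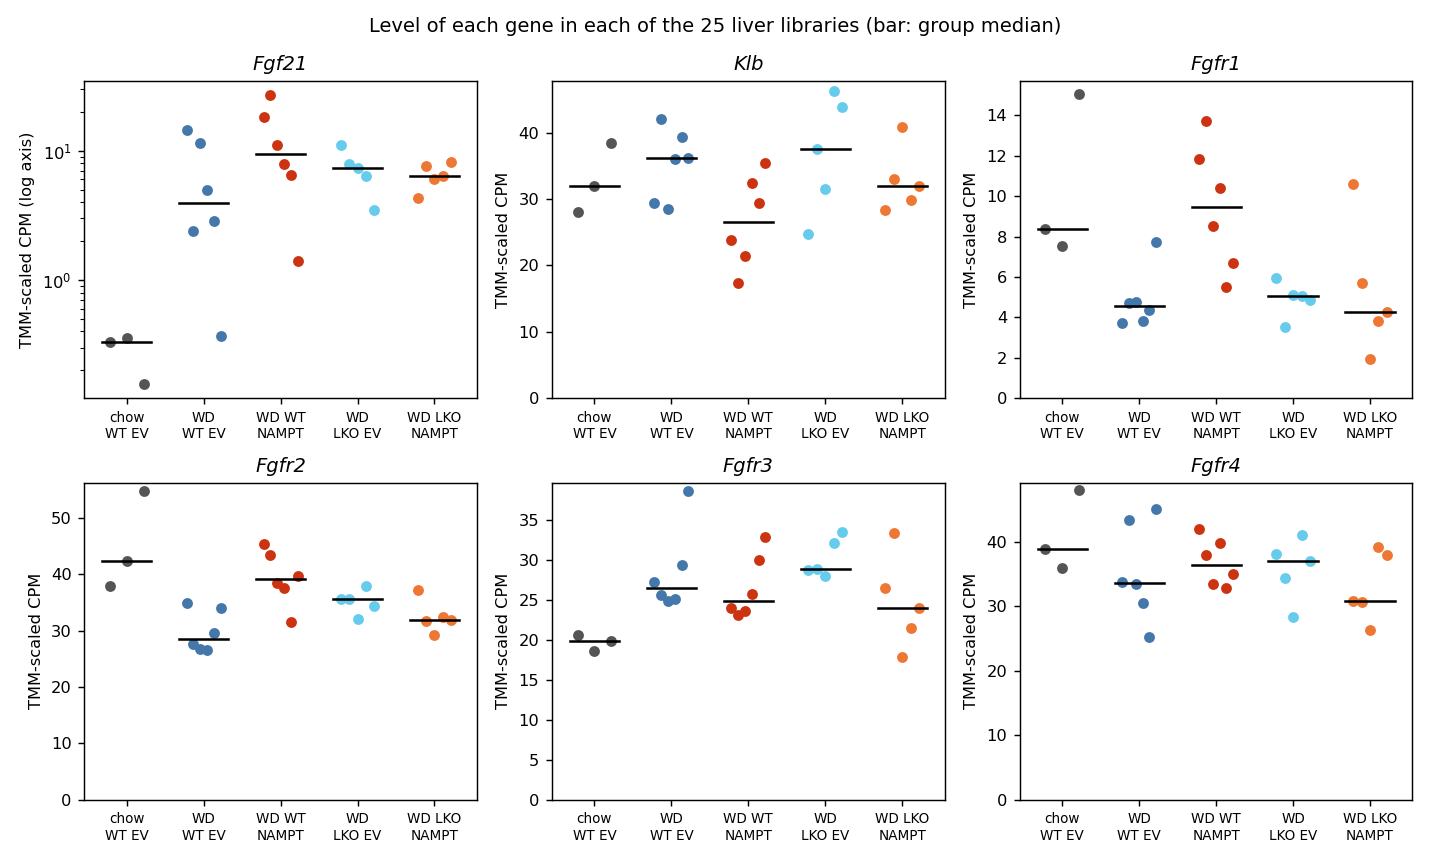
Each point is 1 liver library and each bar the median of its group, in TMM-scaled CPM (log axis for Fgf21, linear axes from 0 for the others). The 3 chow libraries have the lowest Fgf21 of all 25, at 0.36 CPM or less, and the medians of Fgfr1 and Fgfr2 are higher in chow WT EV and WD WT NAMPT than in WD WT EV.

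Klb lies on chromosome 5 (ENSMUSG00000029195, 65348386 to 65384003, plus strand, 5 exon blocks). It was at 28.02, 31.95 and 38.4 CPM in chow WT EV. WD WT EV had a lowest value of 28.6, a median of 36.2 and a highest of 42.1 CPM. WD WT NAMPT ran lower, from 17.4 through a median of 26.6 to 35.5 CPM, and its 3 lowest libraries were below every chow and WD WT EV library. The 2 LKO-labelled groups overlapped each other and the rest, with 24.8, 37.5, 31.45, 46.4 and 43.8 CPM in WD LKO EV and 28.3, 33.1, 40.8, 29.9 and 31.98 CPM in WD LKO NAMPT.

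Fgfr1 (ENSMUSG00000031565, chromosome 8, 25513654 to 25575714, plus strand) shares 164 exon bases with Gm16159 on the other strand, whose reads cannot be told apart if counting ignored strand. It was at 8.38, 7.55 and 15.1 CPM in chow WT EV. In WD WT EV it had a lowest value of 3.71, a median of 4.54 and a highest of 7.75 CPM. WD WT NAMPT ran from 5.51 through 9.49 to 13.7 CPM, and only replicate 8 of WD WT EV reached into that range. In WD LKO EV the libraries had 5.95, 3.50, 5.12, 5.05 and 4.88 CPM. In WD LKO NAMPT they had 10.6, 5.68, 1.92, 3.801 and 4.27 CPM, so that replicates 1 and 2 of that group lay within the range of WD WT NAMPT and replicate 3 was the lowest of all 25 libraries.

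Fgfr2 (ENSMUSG00000030849, chromosome 7, 130162451 to 133123350, minus strand) shares 314 exon bases with Ctbp2 on the same strand. It was at 38.0, 42.3 and 54.8 CPM in chow WT EV. WD WT EV had a lowest value of 26.5, a median of 28.6 and a highest of 35.0 CPM, all below the chow libraries. WD WT NAMPT ran from 31.6 through 39.1 to 45.4 CPM. WD LKO EV had 35.6, 35.5, 32.01, 38.0 and 34.5 CPM and WD LKO NAMPT 37.1, 31.6, 29.3, 32.5 and 31.9 CPM, so both LKO-labelled groups lay between the WT groups on Western diet and overlapped both.

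Fgfr3 (ENSMUSG00000054252, chromosome 5, 33721724 to 33737068, plus strand) was at 20.6, 18.6 and 19.9 CPM in chow WT EV. WD WT EV had a lowest value of 24.9, a median of 26.4 and a highest of 38.6 CPM, all above the chow libraries. WD WT NAMPT had 23.1, 24.8 and 32.9 CPM as lowest, median and highest. WD LKO EV held 28.7, 28.9, 27.9, 32.1 and 33.5 CPM and WD LKO NAMPT 26.5, 33.3, 17.8, 21.5 and 23.95 CPM. Replicate 3 of WD LKO NAMPT, the lowest library for Fgfr1, was also the lowest of all 25 for Fgfr3.

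Fgfr4 (ENSMUSG00000005320, chromosome 13, 55152640 to 55168759, plus strand) varied least between groups. It was at 38.9, 36.0 and 48.0 CPM in chow WT EV. WD WT EV had 25.2, 33.6 and 45.1 CPM as lowest, median and highest, and WD WT NAMPT 32.8, 36.4 and 42.01 CPM. WD LKO EV had 38.1, 34.4, 28.3, 41.0 and 37.0 CPM and WD LKO NAMPT 30.8, 30.7, 26.2, 39.2 and 37.9 CPM. All 5 groups overlapped.

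The first comparison asked how Western diet altered the set in WT mice with empty vector. On Western diet Fgfr1 and Fgfr2 fell and Fgfr3 rose, whereas Klb and Fgfr4 did not pass the test. A gene was called at an adjusted p of 0.05 or less in the limma fit across all genes and libraries, and 3 of the 6 members were called beside 22% of all genes. Fgfr1 fell by 0.89 ± 0.26 on the log2 scale (SE, adjusted p = 0.0150). Fgfr2 fell by 0.52 ± 0.09 (adjusted p = 0.000352), and its groups did not overlap, as for 8.43% of all genes that were lower. Fgfr3 rose by 0.50 ± 0.13 (adjusted p = 0.00795), and its groups did not overlap, as for 7.69% of all genes that were higher. Fgf21 was 10.6-fold higher with a log2 difference of 3.41 ± 1.36, its groups did not overlap, and it missed the threshold in limma with an adjusted p of 0.0733. It passed in the edgeR quasi-likelihood test (log2 4.42, adjusted p = 0.00622) and in DESeq2 (log2 4.44, adjusted p = 2.89e-06). In limma it passed in 1 of the 9 fits that left out 1 library, that without WD WT EV replicate 8 (log2 3.94, adjusted p = 0.0213), and the other 8 gave adjusted p of up to 0.405. Over the other tools and settings the adjusted p ran from 2.89e-06 to 0.324. The 3 chow libraries held 20 Fgf21 counts in all. In the exact two-sided permutation test Fgf21, Fgfr2 and Fgfr3 each reached 0.0238, the smallest p that 3 against 6 libraries allow, and 0.130 after adjustment over the 30 such tests. The differences of Klb (0.20, 95% interval −0.13 to 0.53) and Fgfr4 (−0.10, −0.38 to 0.17) were not called.

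The call of Fgfr1 was lost without quality weights (log2 −1.08, adjusted p = 0.0525) and without the filter on low counts (log2 −0.94, adjusted p = 0.05002), where the difference was no smaller, and Klb passed with 2 surrogate variables (log2 0.46, adjusted p = 0.0283). The call of Fgfr3 was lost without chow WT EV replicate 1 (log2 0.52, adjusted p = 0.0864) or replicate 2 (log2 0.44, adjusted p = 0.169). Circadian clock genes differed between the same groups: of 12 measured, 6 rose and 4 fell, beside 22% of all genes called. Among the 12, Dbp, an output gene of the clock, was at 2.33 CPM in chow WT EV and 27.9 CPM in WD WT EV. The labels give no hour of collection. With a clock-gene score as covariate the log2 difference of Fgf21 was 4.83 (adjusted p = 0.0173), that of Fgfr1 was −1.02 (adjusted p = 0.0517) and that of Fgfr3 was 0.25 (adjusted p = 0.278). Of 6 macrophage markers 2 rose on Western diet, as did 2 of 6 stellate cell markers, and 2 of 6 hepatocyte markers fell. These counts stand beside 22% of all genes called. The macrophage sum was 215 to 272 CPM in chow WT EV and 267 to 393 CPM in WD WT EV, and the part of these cells in the member differences was not tested.

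**Figure D2:**
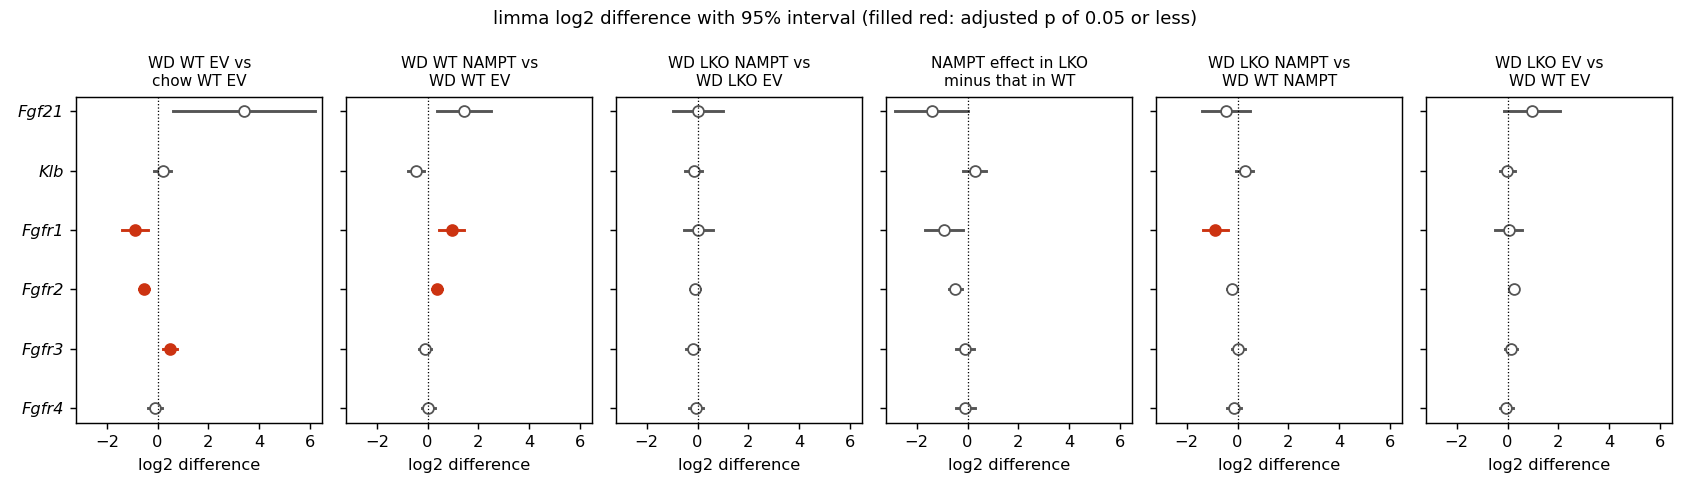
The x axes give the limma log2 difference of each gene in each of the 6 comparisons, with its 95% interval, and filled red points passed an adjusted p of 0.05. Fgfr1 and Fgfr2 have negative values for Western diet against chow and positive ones for NAMPT in WT mice, and all 6 genes are unfilled for NAMPT in LKO-labelled mice.

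The second comparison asked how the NAMPT vector altered the set in WT mice on Western diet. Fgfr1 and Fgfr2 rose, and 2 of the 6 members were called beside 13.4% of all genes. Fgfr1 rose by 0.95 ± 0.24 on the log2 scale, or 1.94-fold (adjusted p = 0.0155). Fgfr2 rose by 0.37 ± 0.09, or 1.29-fold (adjusted p = 0.0140). Both groups overlapped for each gene, and the exact permutation test gave 0.00866 for each, or 0.130 after adjustment over 30 tests. Fgf21 had a log2 difference of 1.44 ± 0.52 (2.71-fold) and an adjusted p of 0.0647, and Klb one of −0.45 ± 0.15 (0.734-fold) and an adjusted p of 0.0542, so neither was called. The exact permutation test gave 0.221 for Fgf21 and 0.0433 for Klb, or 0.442 and 0.156 after adjustment over 30 tests. Fgfr3 (−0.10, 95% interval −0.35 to 0.15) and Fgfr4 (0.03, −0.24 to 0.29) were not called.

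The size of the Fgf21 difference depended on the fit. It was 0.99 in DESeq2 (adjusted p = 0.309), 1.93 with the clock-gene score (adjusted p = 0.0164) and −0.07 with 2 surrogate variables (adjusted p = 0.972). It passed with library size alone (1.53, adjusted p = 0.0490) and in 4 of the 12 fits that left out 1 library, those without WD WT EV replicates 1 or 4 or WD WT NAMPT replicates 5 or 6 (1.62 to 1.89, adjusted p from 0.0204 to 0.0333). Without WD WT EV replicate 8 it was 0.90. Of the 12 clock genes 3 were lower and none higher in this comparison, beside 13.4% of all genes called, and their part was not tested. Klb passed with the clock-gene score (−0.63, adjusted p = 0.00849) and in 5 of the 12 fits that left out 1 library, those without WD WT EV replicates 1 or 4 or WD WT NAMPT replicates 4, 5 or 6 (adjusted p from 0.0203 to 0.0308). Over the other tools and settings Klb ran from −0.63 to −0.18, with adjusted p of up to 0.566. Leaving out 1 library gave −0.61 to −0.29, with adjusted p of up to 0.268. With 2 surrogate variables Fgfr1 was 0.61 (adjusted p = 0.267) and Fgfr2 was 0.38 (adjusted p = 0.0854), and without the filter on low counts their adjusted p were 0.058 and 0.0533. The calls of Fgfr1 and Fgfr2 were also lost without WD WT EV replicate 2 (adjusted p = 0.0559 and 0.0617) or WD WT NAMPT replicate 3 (adjusted p = 0.0637 and 0.0684), and Fgfr1 was not called by the edgeR quasi-likelihood test (log2 0.97, adjusted p = 0.0666). Without the filter or either library Fgfr1 was 0.95 to 0.97 and Fgfr2 0.33 to 0.37, beside 0.95 and 0.37 in the main fit.

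Markers of some other liver cells moved in the same comparison, beside 13.4% of all genes called. Of 6 macrophage markers 5 rose, as did 4 of 6 stellate cell markers and 2 of 4 neutrophil markers. The stellate cell markers Lrat and Reln (−0.03 and 0.08) and the macrophage marker Clec4f (0.31, adjusted p = 0.0967) were not called. Of 5 endothelial cell markers 1 rose and 1 fell, and none of 5 cholangiocyte or 3 tested lymphocyte markers was called. The stellate cell sum was 196 to 321 CPM in WD WT EV and 176 to 555 CPM in WD WT NAMPT. The macrophage sum was 267 to 393 CPM and 257 to 731 CPM in the same groups. Within WD WT NAMPT, replicates 5 and 6 had the lowest Fgfr1 (5.51 and 6.67 CPM) and also the lowest sums of macrophage markers (435 and 257 CPM) and stellate cell markers (310 and 176 CPM). Replicate 2, with the highest Fgfr1, Fgf21 and stellate cell sum, had the lowest hepatocyte marker sum, 45030 CPM. In bulk liver, more cells of a type and more RNA per cell cannot be told apart, and the part of these cells in the differences of Fgfr1, Fgfr2 and Klb was not tested.

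The third comparison asked for the same NAMPT effect in LKO-labelled mice. None of the 6 members was called by limma, beside 0.00711% of all genes, and none had an unadjusted p under 0.05, beside 9.63% of all genes. Neither DESeq2 nor the quasi-likelihood and exact tests of edgeR called any. Fgf21 had a log2 difference of 0.02 with a 95% interval of −0.95 to 0.9998. The intervals were −0.48 to 0.17 for Klb, −0.52 to 0.59 for Fgfr1 and −0.30 to 0.08 for Fgfr2. They were −0.44 to 0.07 for Fgfr3 and −0.33 to 0.22 for Fgfr4.

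Whether the NAMPT effect differed between WT and LKO-labelled mice was tested as an interaction. None of the 6 members was called by limma, beside 0.00711% of all genes, or by the edgeR quasi-likelihood test, and DESeq2 gave them no adjusted p. In limma 2 had an unadjusted p under 0.05, beside 21.2% of all genes. These were Fgfr2, with a NAMPT effect 0.48 ± 0.13 lower in LKO-labelled mice on the log2 scale (adjusted p = 0.0772), and Fgfr1, with −0.92 ± 0.36 (adjusted p = 0.153). The interaction of Fgf21 was −1.41 ± 0.70 (adjusted p = 0.247), and that of Klb 0.29 ± 0.22 (adjusted p = 0.444). Over the other tools and settings that of Fgf21 ran from −1.685 to −0.1685, with adjusted p of up to 0.940. That of Klb ran from 0.036 to 0.38, with adjusted p of up to 0.951. The interaction of Fgfr2 passed with the clock-gene score (adjusted p = 0.0481) and without WD WT NAMPT replicate 5 (adjusted p = 0.0358), WD WT NAMPT replicate 6 (0.0405) or WD LKO NAMPT replicate 1 (0.0364). Over all other tools and settings it ran from −0.61 to −0.48, with adjusted p of up to 0.386. Leaving out 1 library gave −0.54 to −0.44, with adjusted p of up to 0.221.

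Under the NAMPT vector, LKO-labelled mice had less Fgfr1 than WT mice by 0.87 ± 0.25 on the log2 scale (adjusted p = 0.0348). It was the 1 member called, beside 7.96% of all genes, and the groups overlapped through WD LKO NAMPT replicates 1 and 2. The call was not made by the edgeR quasi-likelihood test (adjusted p = 0.169) or DESeq2 (adjusted p = 0.105), and it was lost in 7 of the 11 fits that left out 1 library of these groups. Those were the fits without WD WT NAMPT replicates 1, 2, 3 or 4 or without WD LKO NAMPT replicates 2, 3 or 5, with adjusted p from 0.0573 to 0.181. The log2 difference of Fgfr1 was −0.99 to −0.78 in these 7 fits, −0.84 in the quasi-likelihood test and −0.85 in DESeq2. WD LKO NAMPT replicate 1 also had the highest macrophage sum of its group, 584 CPM against 267 to 363 CPM in the others, and the highest stellate cell sum, 369 against 225 to 251 CPM, whose part was not tested. Fgf21 (−0.46, 95% interval −1.40 to 0.49), Klb (0.29, −0.05 to 0.62) and Fgfr2 (−0.23, −0.43 to −0.04, adjusted p = 0.106) were not called.

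With empty vector, no member differed between LKO-labelled and WT mice on Western diet in limma, the edgeR tests or DESeq2, beside 0.00711% of all genes called in limma. The smallest unadjusted p and the only 1 under 0.05 was that of Fgfr2, beside 6.33% of all genes under 0.05, with a log2 difference of 0.25 ± 0.09 (adjusted p = 0.642). Fgf21 had a log2 difference of 0.96 with a 95% interval of −0.14 to 2.06.

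Over all Western diet libraries, Fgf21 and Klb varied inversely around their group means. In the 22 Western diet libraries, with each group's mean removed from log2(CPM + 0.5), Pearson's r was −0.65 and Spearman's rho −0.72, with permutation p of 0.00113 and 0.00058 (adjusted over 15 pairs of members, 0.0169 and 0.0087). Without the 2 libraries farthest from the median of Fgf21, WD WT EV replicate 8 and WD WT NAMPT replicate 6, r was −0.72. Counted from the most negative r with Fgf21, Klb ranked 463 among 14064 other genes. Only group means were removed. The clock-gene score varied within groups, from −1.71 to 1.75 in WD WT EV and from −1.58 to 1.81 in WD LKO EV. Its part in this correlation was not tested. Within WD WT EV alone r was −0.71 (exact permutation p = 0.117, n = 6) and within WD WT NAMPT −0.86 (exact permutation p = 0.0236, n = 6), adjusted over 30 such tests to 0.269 and 0.243. The WD WT NAMPT library with the highest Fgf21, 26.9 CPM, had the lowest Klb of the study, 17.4 CPM. In WD LKO EV the library with the highest Fgf21, 11.01 CPM, had the lowest Klb of its group, 24.8 CPM, and the one with the lowest Fgf21, 3.50 CPM, had 43.8 CPM of Klb. WD LKO NAMPT did not show this order: its library with the lowest Fgf21, 4.32 CPM, also had its lowest Klb, 28.3 CPM. The WD WT NAMPT and WD LKO EV libraries with the lowest Klb also had the lowest hepatocyte marker sum of their groups, 45030 and 51790 CPM. This did not hold in the other Western diet groups. In WD WT EV the lowest sum, 54550 CPM, was in replicate 8, with 36.2 CPM of Klb. In WD LKO NAMPT it was in replicate 4, 51500 CPM, with 29.9 CPM of Klb. The part of the hepatocyte markers was not tested.

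Fgf21 and Fgfr3 also varied inversely (r = −0.60, rho = −0.58, permutation p = 0.00225 and 0.00959, adjusted p = 0.0169 and 0.0719). Without the same 2 libraries r was −0.27, so the relation over all 22 libraries rested on them. Within WD WT NAMPT alone r was −0.92 and rho −0.94 (exact permutation p = 0.00278 and 0.0167, n = 6, adjusted over 30 tests to 0.0833 and 0.25), and within WD WT EV r was −0.77 (exact permutation p = 0.0708, adjusted p = 0.245, n = 6). With scaling by library size alone r over all 22 was −0.30 and not called (permutation p = 0.133, adjusted p = 0.221). Fgfr1 and Fgfr2 varied together (r = 0.59, permutation p = 0.00463, adjusted p = 0.0231), with a rho of 0.39 (permutation p = 0.0936, adjusted p = 0.234), and r was 0.50 without WD LKO NAMPT replicates 1 and 3. The other 12 pairs had adjusted p above 0.05 for r. With scaling by library size alone, Fgfr1 and Fgfr4 (r = 0.60) and Fgfr2 and Fgfr4 (r = 0.62) also passed (adjusted p = 0.0275 for both), Fgf21 and Klb had an r of −0.68 and Fgfr1 and Fgfr2 of 0.78 (adjusted p = 0.0033 for both).

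**Figure D3:**
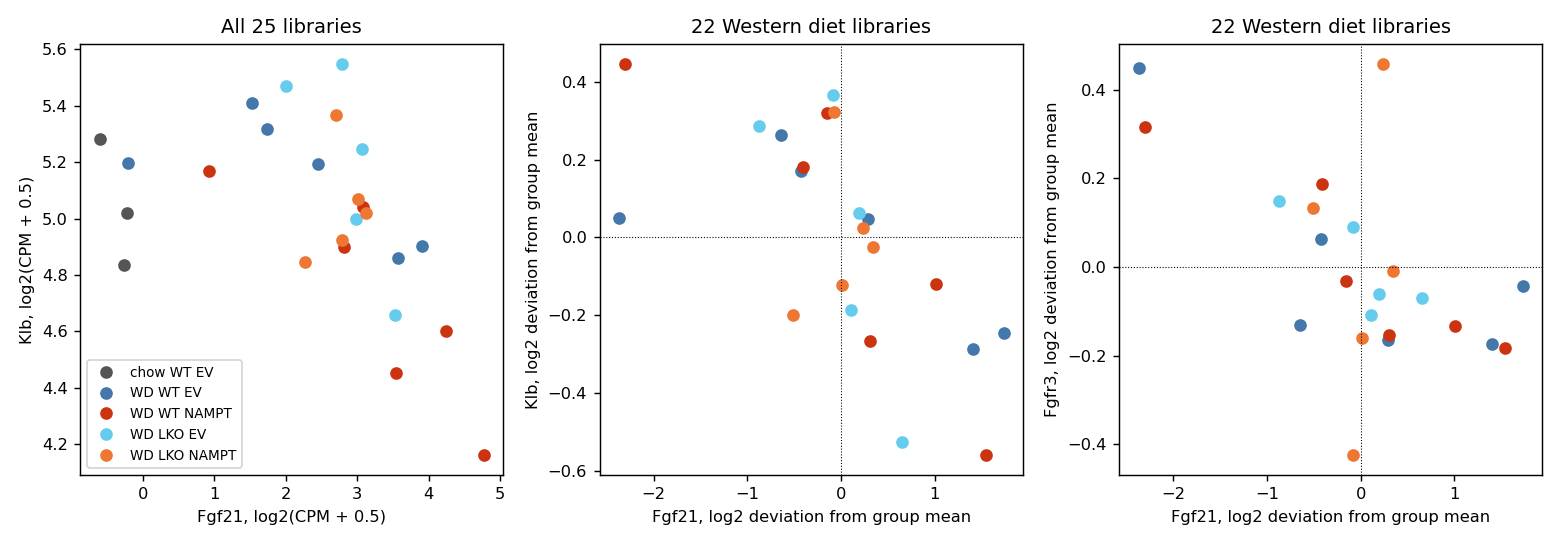
The left panel plots Klb against Fgf21 in all 25 libraries as log2(CPM + 0.5), and the middle and right panels plot Klb and Fgfr3 against Fgf21 as log2 deviations from the group mean in the 22 Western diet libraries. Klb falls as Fgf21 rises (r = −0.65), whereas the slope for Fgfr3 (r = −0.60) is carried by the 2 points at the far left.

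Across the same 22 libraries, the genes whose deviations were most like those of Fgf21, among 12557 genes ranked, were Serpina7 (r = 0.91), Kmt5a (r = 0.91), Srxn1 (r = 0.91), Mcm4 (r = 0.89) and Plscr1 (r = 0.88). Serpina7 encodes thyroxine-binding globulin, Kmt5a a histone H4 methyltransferase, Srxn1 sulfiredoxin, Mcm4 a subunit of the replicative helicase and Plscr1 a phospholipid scramblase. Those most like Klb were Kng1 (r = 0.94), a kininogen gene, Pipox (r = 0.94), a peroxisomal oxidase gene, and Ces2a (r = 0.93), a carboxylesterase gene. Likeness to Fgfr4 was weaker, at r = 0.77 for Nacc2, 0.76 for Ern1, the endoplasmic reticulum stress sensor, and 0.72 for Adcy4. These points share libraries, and the correlations are descriptions.

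The rest of the pathway was read from lists of 102 genes, of which 79 were tested. In the Western diet comparison 21 rose and 4 fell, or 31.6% beside 22% of all genes. In WT mice 8 rose and 12 fell with NAMPT, or 25.3% beside 13.4% of all genes. In LKO-labelled mice limma, both edgeR tests and DESeq2 called none of the 79 with NAMPT, beside 0.00711% of all genes in limma, and 10 had an unadjusted p under 0.05, beside 9.63% of all genes. The interaction, which tests the difference between WT and LKO-labelled mice, called none of the 79 in limma or the edgeR quasi-likelihood test and 4 in DESeq2. In limma 22 had an unadjusted p under 0.05, beside 21.2% of all genes. Counts of calls depended on the fit. Over the other tools and settings they ran from 14 to 28 for Western diet and from 2, with 2 surrogate variables, to 27 for NAMPT in WT mice. Leaving out 1 library gave 14 to 29 for Western diet, with 14 and 15 without chow WT EV replicates 1 and 2. For NAMPT in WT mice it gave 4 to 25, with 4 without WD WT EV replicate 2 or WD WT NAMPT replicate 3, 8 without WD WT EV replicate 6 and 11 without WD WT NAMPT replicate 2.

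Among the other 21 FGF ligand genes only Fgf1 and Fgf2 passed the filter on low counts, and Fgf15, the gut ligand of FGFR4, had a count of 0 in every library. Fgf1, an acidic FGF that binds all FGF receptors, was at 63.4 CPM in WD WT EV and 42.3 CPM in WD WT NAMPT, a fall of 0.67 on the log2 scale that was called (log2 −0.67 ± 0.17, adjusted p = 0.0170). It was higher under NAMPT in LKO-labelled than in WT mice (0.64 ± 0.18, adjusted p = 0.0376). Fgfrl1, an FGF receptor without a kinase domain, rose on Western diet from 18.7 ± 3.1 CPM (n = 3) to 40.5 ± 3.8 CPM (n = 6), by 1.17 ± 0.12 on the log2 scale (adjusted p = 2.25e-07). Its groups did not overlap, as for 7.69% of all genes that were higher.

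Of 20 genes that carry the signal from FGF receptors, 2 rose and 1 fell on Western diet and 3 rose and 2 fell with NAMPT in WT mice, with list medians of 0.00 beside all-gene medians of 0.00. Of all genes, 22% were called in the first and 13.4% in the second comparison, so that the 3 of 20 were a smaller share and the 5 of 20 a larger share than that of all genes, and neither difference was tested. Mapk3, the gene of ERK1, rose by 0.44 ± 0.10 on Western diet (adjusted p = 0.00276), and Frs2, the docking protein of the receptors, fell by 0.26 ± 0.07 (adjusted p = 0.00883). With NAMPT in WT mice Sos2, a RAS exchange factor gene, rose by 0.73 ± 0.22 and its paralog Sos1 fell by 0.36 ± 0.11 (adjusted p = 0.0292 and 0.0348). Cbl, a ubiquitin ligase gene, rose in both comparisons (0.35 in each).

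Feedback genes of FGF and ERK signaling gave 3 of 15 called on Western diet, all higher, a share near the 22% of all genes called, with a list median of 0.41. Spry4 rose by 1.11 ± 0.35 (adjusted p = 0.0239), Dusp6, an ERK phosphatase gene, by 0.89 ± 0.21 (adjusted p = 0.00406) and Spry1 by 0.48 ± 0.17 (adjusted p = 0.0402). With NAMPT in WT mice only Ier3 of the 15, an early response gene, was called (1.55 ± 0.32, adjusted p = 0.00878), beside 13.4% of all genes. Of the 3 bile acid genes downstream of FGFR4 and beta-klotho, Nr0b2, a repressor gene, rose on Western diet (0.67 ± 0.23, adjusted p = 0.0363). Cyp8b1, the sterol 12-alpha-hydroxylase, fell with NAMPT in WT mice from 421 ± 60 to 158 ± 120 CPM (SD, n = 6 each; log2 −1.85 ± 0.28, adjusted p = 0.00316), and its groups did not overlap, as for 0.59% of all genes that were lower. It was higher in LKO-labelled than in WT mice under NAMPT (1.42 ± 0.30, adjusted p = 0.0148).

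Of 11 regulators of Fgf21 transcription, 1 rose and 1 fell on Western diet, beside 22% of all genes called, and 1 rose and 1 fell with NAMPT in WT mice, beside 13.4%, both shares near those of all genes. Ppara rose on Western diet from 103 to 223 CPM (1.04 ± 0.16, adjusted p = 5.69e-05) and Atf4 fell (−0.49 ± 0.12, adjusted p = 0.00546). With NAMPT in WT mice Ddit3, the stress gene of CHOP, rose from 3.87 to 7.67 CPM (1.01 ± 0.23, adjusted p = 0.0124), and Mlxipl, the gene of ChREBP, fell by 0.40 ± 0.13 (adjusted p = 0.0402). Ddit3 was lower in LKO-labelled than in WT mice under NAMPT (−0.83 ± 0.23, adjusted p = 0.0337).

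Of 10 PPARA targets 6 rose and 1 fell on Western diet, where 22% of all genes were called, led by Vnn1 (2.74 ± 0.48), Cyp4a10 (1.52 ± 0.34) and, falling, Pdk4 (−1.29 ± 0.34). With NAMPT in WT mice 5 of the 10 fell and none rose, beside 13.4% of all genes called, with a list median of −0.67 beside an all-gene median of 0.00. Cyp4a10, a fatty acid hydroxylase gene, fell from 370 ± 140 to 99.2 ± 55 CPM (−1.92 ± 0.33, adjusted p = 0.00413). In the same comparison 5 of 6 macrophage, 4 of 6 stellate cell and 2 of 4 neutrophil markers rose and 1 of 6 hepatocyte markers, Cyp2e1, fell (−0.98 ± 0.26, adjusted p = 0.0173), and their part in the changes of the PPARA, ATF4 and ChREBP targets was not tested. Under NAMPT 6 of the 10 were higher in LKO-labelled than in WT mice, beside 7.96% of all genes called, led by Cyp4a10 (2.45 ± 0.36) and Cyp4a14 (2.14 ± 0.60). There 1 of 6 macrophage, 1 of 6 stellate cell, 1 of 4 neutrophil and 1 of 5 cholangiocyte markers were lower. Of 6 hepatocyte markers 1 was higher and 1 lower, and the part of these cells was not tested. This comparison was unstable: over the whole pathway 10 genes were called, with 0 to 21 when 1 library was left out (0 without WD LKO NAMPT replicate 2, and 21 without WD WT NAMPT replicate 6), 3 in the edgeR quasi-likelihood test, 2 without quality weights and 1 with 2 surrogate variables.

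Of 9 ATF4 targets tested, 3 rose with NAMPT in WT mice and none fell, beside 13.4% of all genes called, with a list median of 0.99. Atf3, a stress-induced factor gene, averaged 2.48 ± 1.6 CPM in WD WT EV and 12.7 ± 12 CPM in WD WT NAMPT (2.02 ± 0.58, adjusted p = 0.0258). Psat1, of serine synthesis, rose by 1.69 ± 0.47 and Nupr1 by 1.68 ± 0.51 (adjusted p = 0.0217 and 0.0315). On Western diet Chac1 and Sesn2 of this list rose (2.49 ± 0.66 and 0.997 ± 0.13) and Asns, of asparagine synthesis, fell by 3.46 ± 0.67 (adjusted p = 0.000765). Of 7 ChREBP targets 5 rose on Western diet, beside 22% of all genes called, led by Pklr, the liver pyruvate kinase gene, from 93.5 to 355 CPM (1.81 ± 0.23, adjusted p = 7e-06). With NAMPT in WT mice 2 of the 7, Khk and Gpd1, fell (0.56 ± 0.15 and 0.55 ± 0.17 lower), beside 13.4% of all genes called.

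**Figure D4:**
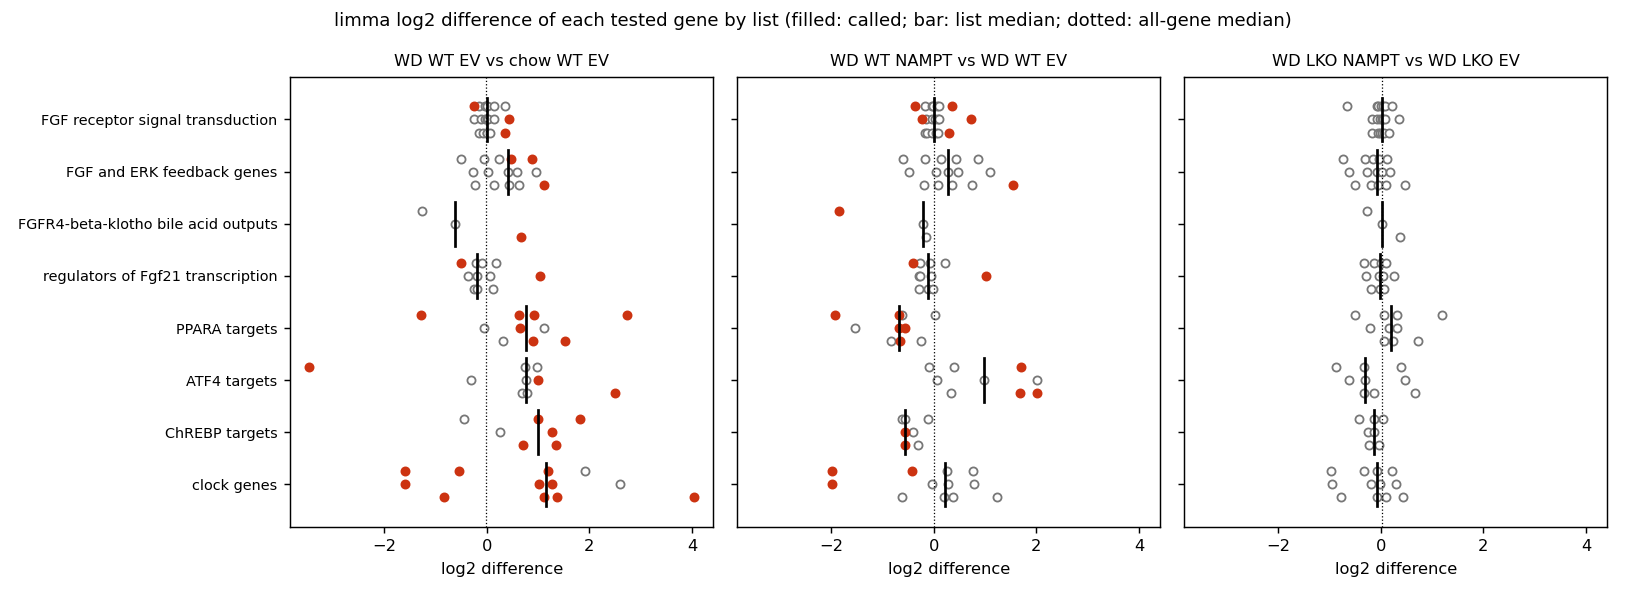
Each point is the limma log2 difference of 1 tested gene in its list, filled where the adjusted p was 0.05 or less, with the list median as a bar and the median of all genes as a dotted line. On Western diet 6 PPARA and 5 ChREBP targets are filled on the right, with NAMPT in WT mice 5 PPARA targets are filled on the left and 3 ATF4 targets on the right, and no point is filled for NAMPT in LKO-labelled mice.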

How the data were processed

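Liver RNA of 25 libraries was sequenced as single short reads. Per the submitters' processing notes, the authors aligned reads with STAR 2.5.1a to GRCm38 and counted them per gene with featureCounts 1.4.6-p5. Other versions stand in the study's methods, which also state that unique, unambiguous reads were counted. The strand setting was not given in the sources used here. The deposited files hold counts for 41388 Ensembl genes, and CPM and RPKM that the authors computed from them. Both were recomputed to within a relative deviation of 5.9e-14, and all fits start from the counts. One protocol text gives SIRT1 as the AAV8 insert where titles give NAMPT, and titles were followed.

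Genes above 1 CPM in at least 2 libraries were kept and 4 ribosomal RNA genes left out. Counts with TMM size factors (edgeR 4.0.16) were fitted for all groups together with limma 3.58.1 (voomWithQualityWeights, R 4.3.3), with Benjamini-Hochberg adjustment over 14065 genes, as in the study's methods. CPM in the text are TMM-scaled. Values are mean ± SD for levels and ± SE for log2 differences. Exact permutation tests (30) and correlations (15 pairs, 100000 permutations within groups) used log2(CPM + 0.5). With n under 10 the limma, edgeR and DESeq2 tests are model tests across all genes. Alternatives were the edgeR quasi-likelihood and exact tests, DESeq2 1.42.0, no quality weights, library size alone, no filter, only the groups compared, a replicate block, 2 surrogate variables (sva 3.50.0), a clock-gene score, a pseudocount of 1 CPM and leaving out each library.

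The fit was also run on simulated counts with known changes, whose outcome is not given here. Named genes were the 6 members and, in each comparison, at most 3 called genes per list with the largest absolute log2 difference, and 5 (Fgf21) or 3 (Klb, Fgfr4) genes most like a member. Of the genes this rule selects, 1 is not reported here. The members and lists were chosen with earlier results of these data known. Each member's symbol matched 1 identifier. Replicates are libraries numbered apart in their titles. No source used here ties each to an animal, and where 2 shared one the p-values would measure technical spread. No 2 libraries of a group agreed within sampling noise (chi-square per degree of freedom at least 15.6).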

Additional observations from a re-analysis of the deposited data

Results flagged for a closer look

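Dixon's criterion was applied to 24 sets of values (6 genes in the 4 Western diet groups). In 2 of them the highest library stood apart, and chance flags about 1 in 20 sets. Both belong to WD WT EV replicate 8. Its Fgfr1 was at 7.75 CPM, against 3.71 to 4.77 CPM in the other 5 libraries, a gap of 0.736 of the group's range. Its Fgfr3 was at 38.6 CPM, against 24.9 to 29.4 CPM in the others, a gap of 0.669 of the range. The same library had the lowest Fgf21 of the Western diet libraries, 0.37 CPM. Without it the Western diet difference of Fgfr3 was 0.43 and that of Fgf21 was 3.94 on the log2 scale.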

How the results depend on the processing

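Of 348 values of the 6 genes under other tools and settings, 276 kept direction and side of the threshold, 18 lost the call, 10 gained it and 44 changed sign, none of which was called, and the cause was not tested. For the interaction DESeq2 gave the 6 genes no adjusted p, and the edgeR exact test gives no value.

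For Western diet, Fgf21 passed at 4.42 (edgeR quasi-likelihood), 4.41 (edgeR exact), 4.44 (DESeq2) and 4.83 (clock score), Klb was −0.23 and Fgfr4 0.050 with the clock score, and 14 pathway genes were called by quasi-likelihood and by limma without quality weights. For NAMPT in WT mice, Fgf21 was 1.53 with library size alone, 1.93 with the clock score and −0.069 with 2 surrogate variables, and Fgfr3 0.056 with library size alone and 0.067 with surrogate variables. Members called there were 1 (quasi-likelihood, no weights), 0 (no filter, surrogate variables) and 4 (clock score). Pathway genes called were 9 (quasi-likelihood), 13 (edgeR exact), 4 (no weights), 8 (no filter), 7 (only the groups compared) and 2 (surrogate variables). For NAMPT in LKO-labelled mice, Fgf21 was −0.15 in both edgeR tests, −0.16 in DESeq2, −0.088 without weights and −0.24 with surrogate variables, and Fgfr1 −0.067 without weights, −0.021 without filter and −0.0066 with the clock score. For the interaction, pathway calls were 4 (DESeq2), 1 (library size) and 9 (clock score), and the clock score gave 1 member and 0.012 for Fgfr3. For LKO-labelled against WT mice under NAMPT, Fgfr3 was −0.11 in both edgeR tests, DESeq2, without weights and with surrogate variables, −0.087 with library size and −0.035 without filter, and Fgf21 was 0.19 with surrogate variables. Members called there were 0 by both edgeR tests, DESeq2, without weights, without filter, with only the groups compared and with surrogate variables. Pathway genes called were 3 (quasi-likelihood), 6 (edgeR exact), 2 (no weights), 4 (no filter), 3 (only the groups compared), 1 (surrogate variables) and 17 (clock score). With empty vector, Klb was 0.059 (quasi-likelihood), 0.060 (edgeR exact), 0.061 (DESeq2), 0.035 (no weights), 0.033 (library size), 0.037 (no filter) and 0.041 (surrogate variables), and Fgfr4 was 0.023 (quasi-likelihood), 0.022 (edgeR exact), 0.024 (DESeq2, surrogate variables), 0.040 (no weights), 0.000385 (library size), 0.034 (no filter) and 0.097 (clock score).

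Replicate numbers were not used to pair the libraries in the main fit. Correlations of same-numbered libraries ran from −0.377 to 0.419, and so few pairs cannot settle whether the numbers pair them. A library correlated best with its own number in 2 of 3 pairs for LKO-labelled against WT mice with empty vector. In the other comparisons this held for 0 of 2, 1 of 4, 1 of 5 and 1 of 5 pairs. With a replicate block, Western diet gave 4.81 for Fgf21 (adjusted p = 0.00432) and −0.033 for Klb. NAMPT in WT mice gave 0.079 for Fgfr3 and 12 pathway calls, and in LKO-labelled mice −0.056 for Fgf21. The block gave 4 pathway calls for the interaction, −0.049 for Fgfr3 and 0 members for LKO-labelled against WT mice under NAMPT, and −0.21 for Fgf21, 0.15 for Klb and 0.040 for Fgfr4 with empty vector.

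Leaving out 1 library at a time, Fgf21 ran from 2.96 to 3.94 for Western diet, 0.90 to 1.89 for NAMPT in WT mice, −0.18 to 0.16 in LKO-labelled mice, −1.86 to −0.88 for the interaction, −0.67 to −0.25 for LKO-labelled against WT mice under NAMPT and 0.42 to 1.41 with empty vector. In the same order, members called ran from 2 to 4, 0 to 4, 0 to 0, 0 to 1, 0 to 2 and 0 to 0, and pathway genes from 14 to 29, 4 to 25, 0 to 0, 0 to 6, 0 to 21 and 0 to 0. Uncalled values that crossed 0 ran from −0.048 to 0.15 (Fgfr4, NAMPT in WT mice), −0.097 to 0.13 (Fgfr1) and −0.15 to 0.028 (Fgfr4) in LKO-labelled mice, −0.30 to 0.0076 (Fgfr3, interaction), −0.18 to 0.13 (Fgfr3, under NAMPT) and, with empty vector, −0.11 to 0.12 (Klb), −0.020 to 0.16 (Fgfr1) and −0.12 to 0.082 (Fgfr4). Exact permutation tests at or under 0.05 ran from 5 to 11, against 9 of 30. The 5 came from leaving out a chow library, after which 2 libraries against 6 cannot reach 0.05, so they say nothing about stability, and the others ran from 6 to 11.

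Fgf21 rests on 20 counts in the chow group. Scaling by library size alone shifted the median of all genes by 0.15 for NAMPT in WT mice.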
